A study of Mus musculus with 56 samples.

Results

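The Dlk1-Dio3 locus on mouse chromosome 12 was followed in the livers through the 5 genes that define it. The noncoding RNAs Meg3, Rian and Mirg and the protein-coding genes Dlk1 and Dio3 were taken by symbol from the RNA-seq table, and each of these 5 genes, of 21888 symbols in all, has 1 row. The main pattern was that Meg3, Rian and Mirg rose from means of 0.307, 0.198 and 0.0253 FPKM to between 3.56 and 89.4 FPKM at day 45, after miR-122 was removed, that Dlk1 reached at most 4.48 FPKM, with 3.25 and 4.48 FPKM at days 100 and 200, and that Dio3 stayed below 0.22 FPKM in all 14 libraries. FPKM count sequenced fragments relative to transcript length and to the depth of the library, so levels can be set beside each other across genes of different length.

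Imprinted genes are transcribed mainly from the chromosome of 1 parent. In this locus Meg3, Rian and Mirg come from the maternal chromosome, Dlk1, Rtl1 and Dio3 from the paternal one, and a methylated region between Dlk1 and Meg3 sets the difference. Many microRNAs are processed from the maternal noncoding transcripts, and Rian also carries small nucleolar RNAs. The locus is active in the fetal liver and largely silent in the adult liver. The FPKM do not tell the parental chromosomes apart, so imprinting itself was not measured here.

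Poly-A RNA was sequenced from 14 livers, 1 library each, all labeled 129Sv/J. The libraries are told apart by replicate letters and are taken here as 1 mouse each. The 11 floxed mice, adult when Cre was given, carry loxP sites around miR-122, the dominant microRNA of hepatocytes. Of these, 3 were uninjected (day 0) and 8 received an rAAV that expresses Cre, with 3 livers taken at day 21, 3 more at day 45, and a single liver at day 100 and at day 200, while 3 further livers came from mice labeled miR-122 knockout, whose labels name no vector. Cre was driven by the Ef1a promoter, which is active in many cell types, and no library of mice with a control vector is among these samples, and exact age and sex are not given in the sources used here, so miR-122 loss, the vector and Cre, and the time since injection cannot be told apart. No wild-type RNA-seq library accompanies the knockout livers. In their comparison with day 0, the knockout, the mouse line, age and any batch cannot be told apart. In whole liver, more cells of a type and more RNA per cell cannot be told apart either. Days 100 and 200 were joined, as the study did, and have 2 mice.

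Several facts of the whole series bear on these genes. In the small RNA libraries that carry the same day and letter, miR-122 took 59.2% to 73.3% of microRNA reads at day 0, 8.22% to 13.2% at day 21 and 0.383% to 1.23% at day 45, then 4.46% at day 100 and 19.1% at day 200, while the deletion could not be checked in this way in the knockout mice. Knockout replicates A and B stand apart from the rest: over the tested genes their Spearman correlation with the 11 floxed livers was 0.763 to 0.908, against 0.922 to 0.951 for replicate C, and knockout results of the 5 genes are therefore also given from replicate C alone. Hepatocyte markers were abundant in every library, with a summed level of 16019 to 38523 FPKM over 15 genes. Their sum was lower at day 45, at 21653 to 28643 FPKM, than at day 0, at 30489 to 34528 FPKM. It was 26665 to 35358 FPKM at day 21, 16019 at day 100, 24319.5 at day 200 and 31903 to 38523 in the knockout. Symbols at 0.1 FPKM or more numbered 12826 to 13162 at day 0, 13906 to 14386 at day 45 and 14416 to 14433 at days 100 and 200. The fragment totals are unknown, but low FPKM fall on steps that were read as 1 fragment, and by these steps depth relative to day 0 replicate A was 0.593 to 0.930 in the floxed livers and 0.386 to 0.541 in the knockout. The floor of a gene was set at 3 fragments, an approximation that rests on annotated transcript lengths and covers counting error only.

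Meg3 is the long noncoding RNA nearest to the methylated control region and the first of the maternal transcripts. It lies at chr12:110779206-110809939 of the mm9 build on the plus strand, with 10 exons in the annotated transcript that has the most exons. RefSeq gives it 2 start windows. The 300 bases around the first (chr12:109540746-109541045 of GRCm38.p6, found without a mismatch at chr12:110778956-110779255 of mm9) are shown because Meg3 is the most abundant member. The first capitals mark a cAMP response element, the palindrome TGACGTCA, which begins 57 bases before the start and is held by 1.79% of 32851 mouse promoters of this length. The second capitals mark 2 overlapping matches to TATAAA, 1 on each strand, a motif held by 13.6% of those promoters.
Meg3 promoter: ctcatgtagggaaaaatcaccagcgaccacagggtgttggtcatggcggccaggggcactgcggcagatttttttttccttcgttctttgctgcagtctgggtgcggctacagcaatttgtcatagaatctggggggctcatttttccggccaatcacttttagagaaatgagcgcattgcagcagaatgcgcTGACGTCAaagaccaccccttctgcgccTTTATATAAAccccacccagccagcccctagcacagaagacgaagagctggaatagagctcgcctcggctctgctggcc
The second window of Meg3 (chr12:109545148-109545447 of GRCm38.p6) holds neither set of letters and 1 CpG. Neither set is in the window of Dlk1, Rian or Mirg, and the window of Rian holds 0 CpG, against 13 in the first window of Meg3 and a median of 7 over all promoters. A match is a description of the letters and not a bound site.

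At day 0 Meg3 was measured at 0.392, 0.181 and 0.348 FPKM in replicates A, B and C, about 89.4 fragments in the 3 libraries together. At day 21 it was at 1.19, 2.91 and 8.31 FPKM, and at day 45 at 12.7, 89.4 and 61.3 FPKM. The highest uninjected mouse lay below the lowest mouse of day 21, and the highest of day 21 lay below the lowest of day 45, so the 3 groups did not overlap. The share of all genes with this order was not counted. Of 11354 genes tested, 22.3% had all 8 mice after Cre above all 3 uninjected mice. Meg3 was at 61.3 FPKM at day 100 and 35.2 FPKM at day 200, inside the range of day 45. The knockout livers held 48.1, 86.1 and 42.8 FPKM, also inside it. The mean was 0.307 ± 0.111 FPKM at day 0, 4.14 ± 3.71 at day 21, 54.5 ± 38.8 at day 45 and 59.0 ± 23.6 in the knockout (SD, n = 3 each), and the ratio of means was 13.5 at day 21, 177 at day 45 and 192 in the knockout. The ratio at day 21 was 6.68 without replicate C. In day 45 replicate B Meg3 ranked 829 among all symbols by FPKM, and in day 0 replicate A 11575.

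**Figure D1:**
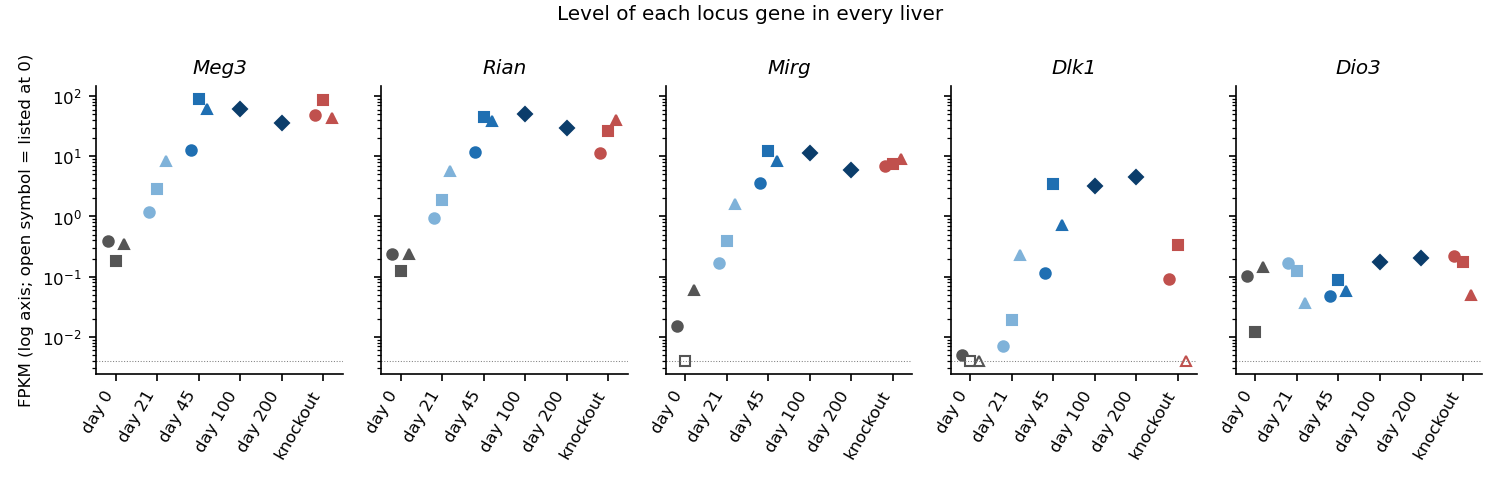
Each point is 1 liver, with the FPKM of the gene named above the panel on a log axis and the group on the horizontal axis; circles, squares and triangles are replicates A, B and C, diamonds are days 100 and 200, and open symbols on the dotted line are values listed at 0. For Meg3, Rian and Mirg the 3 points of day 21 lie above those of day 0 and below those of day 45, Dlk1 reaches 3.25 and 4.48 FPKM at days 100 and 200, and Dio3 stays between 0.012 and 0.217 FPKM throughout.

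Across all genes, limma was run on log2(FPKM + 1) for the 11354 symbols whose mean over the 14 libraries reached 1 FPKM, and genes with a Benjamini-Hochberg adjusted p under 0.05 were called. This scale understates the change of a gene that starts low. Meg3, Rian and Mirg passed this filter only through the libraries in which they are high, since their day 0 means were 0.307, 0.198 and 0.0253 FPKM, so their number among the called genes is no evidence in itself. Dlk1, with a mean of 0.911 FPKM, and Dio3, with 0.115 FPKM, did not pass. At day 45 Meg3 was higher than at day 0 by 5.03 ± 0.63 on the log2 scale (SE, limma adjusted p = 0.00044), where 23.7% of all tested genes were called higher, and it ranked 7 of 11354 by the size of its rise. Leaving out 1 mouse at a time gave a rise of 4.49 to 5.85, the largest without day 45 replicate A. Meg3 was higher by 5.19 ± 0.71 at days 100 and 200 (limma adjusted p = 0.00029, against 28.4% of genes called higher) and by 5.46 ± 0.63 in the knockout (limma adjusted p = 0.000145, against 19.3%). With replicate C as the only knockout mouse, which is then assumed to vary like the other groups, the rise was 5.07 ± 0.94 (limma adjusted p = 0.0138). At day 21 the difference of 1.72 ± 0.63 did not pass (limma adjusted p = 0.127, against 6.20% of genes called higher), while with a pseudocount of 0.1 in place of 1 it was 3.01 and passed (limma adjusted p = 0.0215).

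Rian, the next gene downstream and host of small nucleolar RNAs and a few microRNAs, lies at chr12:110842155-110899921 on the plus strand, 32.2 kb beyond Meg3, with 21 exons. It was at 0.236, 0.123 and 0.234 FPKM at day 0, at 0.952, 1.87 and 5.80 FPKM at day 21, and at 12.01, 45.6 and 38.9 FPKM at day 45. As for Meg3, the mice of these groups did not overlap. The livers of days 100 and 200 held 50.8 and 29.0 FPKM, and the knockout livers 11.2, 26.1 and 40.5 FPKM. The mean was 0.198 ± 0.065 FPKM at day 0 and 32.2 ± 17.8 at day 45 (SD, n = 3 each), a ratio of 163. Rian was called higher at day 45 by 4.59 ± 0.56 on the log2 scale (limma adjusted p = 0.000373), at days 100 and 200 by 5.04 ± 0.63 (limma adjusted p = 0.000176) and in the knockout by 4.32 ± 0.56 (limma adjusted p = 0.000319). With knockout replicate C alone the last value was 5.12 ± 0.74 (limma adjusted p = 0.00358). At day 21 it was 1.49 ± 0.56 and not called (limma adjusted p = 0.135), and with a pseudocount of 0.1 it was 2.98 and called (limma adjusted p = 0.0147).

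Mirg, named as a microRNA-containing gene, lies at chr12:110973191-110987667 on the plus strand, 73.3 kb beyond Rian, with 8 exons. At day 0 it was at 0.015, 0 and 0.061 FPKM, about 4.7 fragments in the 3 libraries together, so its starting level is barely above detection. It was at 0.169, 0.388 and 1.60 FPKM at day 21 and at 3.56, 12.4 and 8.45 FPKM at day 45, again without overlap between the groups. Days 100 and 200 gave 11.5 and 5.89 FPKM, and the knockout 6.98, 7.40 and 9.19 FPKM, the narrowest spread of the 3 noncoding RNAs there. The ratio of means was 322 at day 45, with a 95% counting interval for the few day 0 fragments of 134.4 to 1036, and it was 1086 without day 0 replicate C, the library with most of them. Mirg was called higher at day 45 by 3.02 ± 0.38 on the log2 scale (limma adjusted p = 0.000414), at days 100 and 200 by 3.18 ± 0.42 (limma adjusted p = 0.000247) and in the knockout by 3.10 ± 0.38 (limma adjusted p = 0.000192). Knockout replicate C alone gave 3.31 ± 0.57 (limma adjusted p = 0.00932). At day 21 the value of 0.66 ± 0.38 was not called (limma adjusted p = 0.35), and it was 2.30 and called with a pseudocount of 0.1 (limma adjusted p = 0.0303).

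Between day 21 and day 45 Mirg rose by 2.37 ± 0.38 (limma adjusted p = 0.0291) and Rian by 3.10 ± 0.56 (limma adjusted p = 0.0455) on the log2 scale, in a comparison where 0.273% of genes were called higher. Meg3 gave 3.31 ± 0.63 and did not pass (limma adjusted p = 0.0571), but passed at 3.69 with a pseudocount of 0.1 (limma adjusted p = 0.0464). These calls sit near the threshold: leaving out 1 mouse at a time left 0 to 3 of these genes called, and 0 when day 21 replicate A, B or C or day 45 replicate B or C was the mouse left out. The size for Meg3 then ranged from 2.76 to 4.13, the largest without day 45 replicate A. Between the knockout and day 45, where 9.44% of genes were called in either direction, none of the 3 passed limma's threshold, with 0.43 ± 0.63 for Meg3, -0.27 ± 0.56 for Rian and 0.08 ± 0.38 for Mirg, and unadjusted p of 0.514, 0.635 and 0.837. With replicate C alone these were 0.04, 0.52 and 0.29, also not called (limma unadjusted p of 0.968, 0.493 and 0.622). The authors' scaling left the median of all tested genes at 0.20 on the log2 scale at day 45 and 0.31 at days 100 and 200. With each library centered on its median log ratio instead, Meg3, Rian and Mirg were higher at day 45 by 4.86, 4.43 and 2.89, all still called, while the share of calls that were higher went from 88.8% to 66.6% over all genes.

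The 3 noncoding RNAs ranked the mice alike at day 21 and day 45, but not at day 0 or in the knockout. At day 21 all 3 were lowest in replicate A and highest in replicate C, with a ratio of highest to lowest mouse of 7.00 for Meg3, 6.10 for Rian and 9.48 for Mirg, and at day 45 all 3 were lowest in A and highest in B. Dlk1 was above its floor in replicate C alone at day 21, and its order at day 45 was that of the noncoding RNAs. Dio3 was at or under its floor in C at day 21 and in A at day 45. In the knockout Meg3 was lowest in C and highest in B, while Rian and Mirg were lowest in A and highest in C. At day 0 all 3 were lowest in B, with Meg3 and Rian highest in A and Mirg in C. The miR-122 share of the small RNA library labeled day 21 C was 8.22%, against 12.5% and 13.2% for A and B. At day 45 the share was 0.908%, 0.383% and 1.23% for A, B and C, so A, with the lowest Meg3, did not have the highest share.

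Relative to Meg3 in the same liver, Rian was lower in 14 of 14 libraries. The ratio of Rian to Meg3 FPKM was 0.602 to 0.680 at day 0, 0.641 to 0.803 at day 21, 0.509 to 0.946 at day 45, and 0.828 and 0.824 at days 100 and 200. It was 0.232 and 0.303 in knockout replicates A and B, below every other library, and 0.948 in replicate C. Mirg was at 0.133 to 0.281 of Meg3 in the 8 livers after Cre, and at 0.145, 0.0859 and 0.215 of it in the knockout. Thus the 3 RNAs kept their order of level, Meg3 over Rian over Mirg, in every library, although the means ± SD of Meg3 and Rian overlap at day 45.

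**Figure D2:**
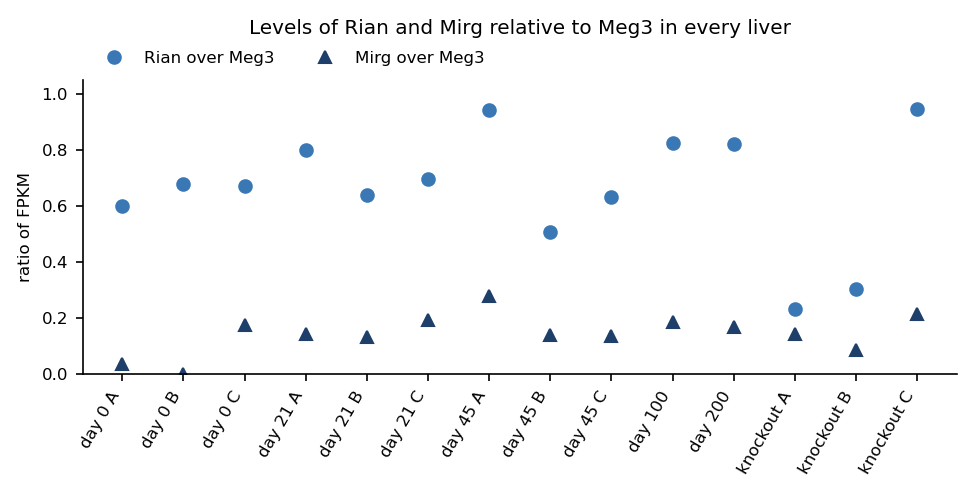
Points give the FPKM of Rian (circles) and Mirg (triangles) divided by that of Meg3 in each of the 14 livers named on the horizontal axis. Rian lies between 0.509 and 0.948 of Meg3 except in knockout replicates A and B, at 0.232 and 0.303.

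Dlk1 encodes a transmembrane protein with EGF-like repeats, related to Notch ligands and known as a marker of fetal hepatoblasts. It lies at chr12:110691033-110701546 on the plus strand, 77.7 kb before Meg3. It was listed at 0.005, 0 and 0 FPKM at day 0, all under the floor, and at 0.007, 0.019 and 0.229 FPKM at day 21, where only replicate C was above it. At day 45 it was at 0.115, 3.51 and 0.727 FPKM and replicate A was still at the floor. Days 100 and 200 gave 3.25 and 4.48 FPKM. The mean of day 45, 1.45 ± 1.81 FPKM (SD, n = 3), was at least 18.6-fold higher than the day 0 floor of 0.078 FPKM (3 fragments per library), while without replicate B the day 45 mean of 0.421 FPKM was 5.40-fold over it. The mean of days 100 and 200 was 3.86 ± 0.87 FPKM (SD, n = 2), at least 49.5-fold higher than that floor. In the knockout Dlk1 was at 0.091, 0.330 and 0 FPKM, and only replicate B was above the floor, in livers whose Meg3 was as high as at day 45.

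Dlk1 and Dio3 were tested with a lower filter and pseudocount, both of 0.1 FPKM, an alternative added after the data were seen. Dlk1, under its floor in all day 0 mice, passes this filter too only through the libraries in which it is high, so its call beside the share of all genes is a description. On this scale Dlk1 was higher than at day 0 by 3.08 ± 0.83 at day 45 (SE, limma adjusted p = 0.0127, against 29.4% of 14104 genes called higher) and by 5.27 ± 0.92 at days 100 and 200 (limma adjusted p = 0.000854, against 34.6%). It was not called at day 21, with 0.67 ± 0.83 (limma adjusted p = 0.705, against 8.47%), or in the knockout, with 0.99 ± 0.83 (limma adjusted p = 0.354, against 22.3%). The knockout minus day 45 difference of -2.10 ± 0.83 did not pass (limma adjusted p = 0.0934). With replicate C as the only knockout mouse, at 0 FPKM, Dlk1 differed by -0.02 from day 0 and by -3.11 from day 45 (limma adjusted p = 0.994 and 0.167). The call at day 45 depends on the scale: with the lower filter but a pseudocount of 1 the change was 1.04 (limma adjusted p = 0.0464), and with no filter the same value was not called (limma adjusted p = 0.0712). At days 100 and 200 it was 2.27 and called in both (limma adjusted p = 0.00109 and 0.00253). The day 45 mice alone spread over 30.5-fold, with replicate A at the floor.

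Dio3 encodes the type 3 deiodinase, which inactivates thyroid hormones. It lies at chr12:111517440-111519307 on the plus strand, 529.8 kb beyond Mirg, and has 1 exon. Its start window in RefSeq (chr12:110278980-110279279 of GRCm38.p6, chr12:111517190-111517489 of mm9) is shown as that of the member that was not called against day 0. It also holds TATAAA, in capitals, 31 bases before the start, has 25 CpG and lacks the cAMP response element.
Dio3 promoter: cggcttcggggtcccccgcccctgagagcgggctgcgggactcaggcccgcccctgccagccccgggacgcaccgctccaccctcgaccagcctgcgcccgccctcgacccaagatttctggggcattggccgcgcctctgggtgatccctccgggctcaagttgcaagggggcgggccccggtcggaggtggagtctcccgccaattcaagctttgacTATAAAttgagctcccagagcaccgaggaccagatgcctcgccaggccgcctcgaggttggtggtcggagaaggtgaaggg
Dio3 was at 0.101, 0.012 and 0.145 FPKM at day 0 and 0.169, 0.124 and 0.037 FPKM at day 21. It was at 0.048, 0.089 and 0.058 FPKM in the 3 mice of day 45, and 0.172 and 0.206 FPKM at days 100 and 200. The knockout livers held 0.217, 0.177 and 0.050 FPKM. All groups overlap the day 0 range or lie just above it. With the filter and pseudocount of 0.1 the difference from day 0 was 0.19 ± 0.37 at day 21, -0.11 ± 0.37 at day 45, 0.71 ± 0.42 at days 100 and 200 and 0.42 ± 0.37 in the knockout, with limma adjusted p of 0.827, 0.875, 0.207 and 0.385. With knockout replicate C alone the last was -0.24 (limma adjusted p = 0.811).

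**Figure D3:**
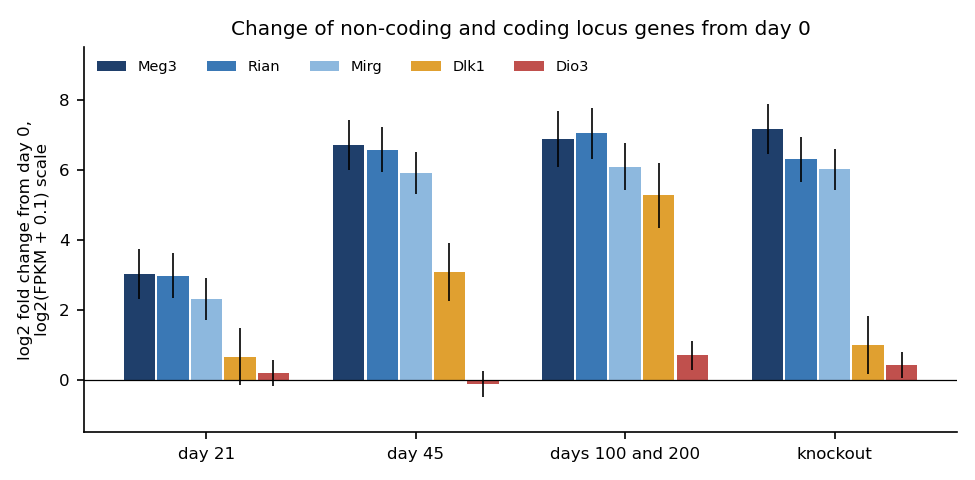
Bars give the log2 fold change from day 0 of each gene on the log2(FPKM + 0.1) scale, with error bars of 1 SE from limma, for day 21, day 45, days 100 and 200, and the knockout. The blue bars of the noncoding RNAs lie between 5.90 and 7.15 from day 45 on, Dlk1 reaches 5.27 at days 100 and 200 but 0.99 in the knockout, and Dio3 lies between -0.11 and 0.71.

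To compare the maternally with the paternally expressed genes directly, the 8 mice after Cre were set against the 3 uninjected mice with exact two-sided permutation tests on log2(FPKM + 0.1), whose smallest p is 0.0121. The values of Meg3, Rian, Mirg and Dlk1 were higher in 8 of 8 mice than in any uninjected mouse, by 5.36, 5.34, 4.60 and 2.72 on the log2 scale (exact p = 0.0121 each, 0.0152 after Benjamini-Hochberg over 5 genes). These sizes depend on the pseudocount: they were 3.83, 3.54, 2.17 and 1.00 with a pseudocount of 1 and 5.73, 5.86, 6.70 and 5.10 with 0.01, at the same exact p. For comparison, 22.3% of the 11354 tested genes had all 8 mice above all 3. Dio3 differed by 0.21 (exact p = 0.533) and was above every uninjected mouse in 3 of 8. For Dlk1 the order of the lowest mice is not a measured difference, since all 3 uninjected mice and 3 of the 8 mice after Cre (day 21 A and B, day 45 A) were at or under the floor. Above the floor there were 5 of 8 mice after Cre and 0 of 3 uninjected mice.

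The log2 ratio of noncoding to coding gene was then tested in the same mice, for 6 pairs. Against Dio3 it rose by 5.15 for Meg3, 5.13 for Rian and 4.39 for Mirg (exact p = 0.0121 each, 0.0145 adjusted over 6). Meg3 over Dio3 went from 0.87 to 1.33 in the uninjected mice to 2.26 to 8.89 after Cre. Against Dlk1 the ratio rose by 2.64, 2.62 and 1.87 (exact p = 0.0121, 0.0121 and 0.0242). Mirg over Dlk1 no longer passed without day 0 replicate A (1.80, exact p = 0.0889) or B (1.74, exact p = 0.0889). The ratios to Dlk1 also depend on the pseudocount, because Dlk1 was under its floor at day 0: with 0.01 in place of 0.1 they were 0.63, 0.76 and 1.60 and none passed (exact p = 0.497, 0.412 and 0.133). After Cre Dlk1 amounted to 0.590% to 12.7% of the Meg3 level in the same liver, with the highest share at day 200.

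Genes within 1 Mb outside Dlk1 and Dio3, and those between them, were taken from the table by position. Rtl1, the paternally expressed retrotransposon-derived gene between Meg3 and Rian, was at 0 in the 3 day 0 mice and at most 0.083 FPKM in any liver. It is antisense to microRNAs of the maternal strand, and since the strand of the libraries is not stated, reads of the 2 strands cannot be told apart. Its overlapping row 6430411K18Rik reached at most 0.093 FPKM, and Dio3os, the antisense transcript beside Dio3, ranged from 0.149 to 1.69 FPKM with overlapping groups. None of these 3 genes reached a mean of 1 FPKM. The 61 rows of microRNAs and small nucleolar RNAs in the window were at 0 in all libraries.

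On the Dlk1 side 8 of 9 listed genes were tested and 4 rose at day 45, where 23.7% of all tested genes did. Of these 4, Degs2 and Eml1 had day 0 means under 1 FPKM and so passed the filter through libraries in which they are higher, as did 29.5% of the rises over all genes. Evl, an actin-regulating protein, rose from 1.94 ± 0.56 to 7.80 ± 1.88 FPKM (SD, n = 3 each; log2 1.58 ± 0.30 SE, limma adjusted p = 0.00274). Degs2, a sphingolipid desaturase, rose from 0.080 ± 0.020 to 1.98 ± 0.82 FPKM (log2 1.43 ± 0.23 SE, limma adjusted p = 0.0012), Eml1, a microtubule-associated protein, from 0.855 ± 0.086 to 4.31 ± 1.63 FPKM, and Wars, the tryptophanyl-tRNA synthetase, from 8.85 ± 1.26 to 16.0 ± 0.64 FPKM. All 4, named for their call at day 45, were called higher in the knockout, where 19.3% of all tested genes were. With replicate C alone none was called on the log2(FPKM + 1) scale (unadjusted p under 0.05 for Eml1 and Degs2), while with the filter and pseudocount of 0.1 Degs2 was called at 2.52 and Eml1 at 1.30 (limma adjusted p = 0.0097 and 0.0354). On the first scale Eml1 was at 0.86 with all 3 knockout mice and 0.81 with C alone (limma adjusted p = 0.00656 and 0.0841), Degs2 at 1.31 and 0.83 (0.00186 and 0.093), Evl at 1.22 and 0.38 (0.0107 and 0.433), and Wars at 0.54 and 0.35 (0.025 and 0.352). The other 4 tested genes on this side, Yy1, Slc25a29, Slc25a47 and Wdr25, were not called at day 45. On the Dio3 side 9 of 14 were tested and 1 rose at day 45, Traf3, a signaling adaptor, by 0.58 ± 0.17 (limma adjusted p = 0.0231), while Wdr20a fell by 0.93 in the knockout (limma adjusted p = 0.0264). With knockout replicate C alone Wdr20a was at -0.04 and not called (limma adjusted p = 0.909). The median log2 change at day 45 was 0.45 on the Dlk1 side and 0.14 on the Dio3 side, beside 0.20 over all tested genes.

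**Figure D4:**
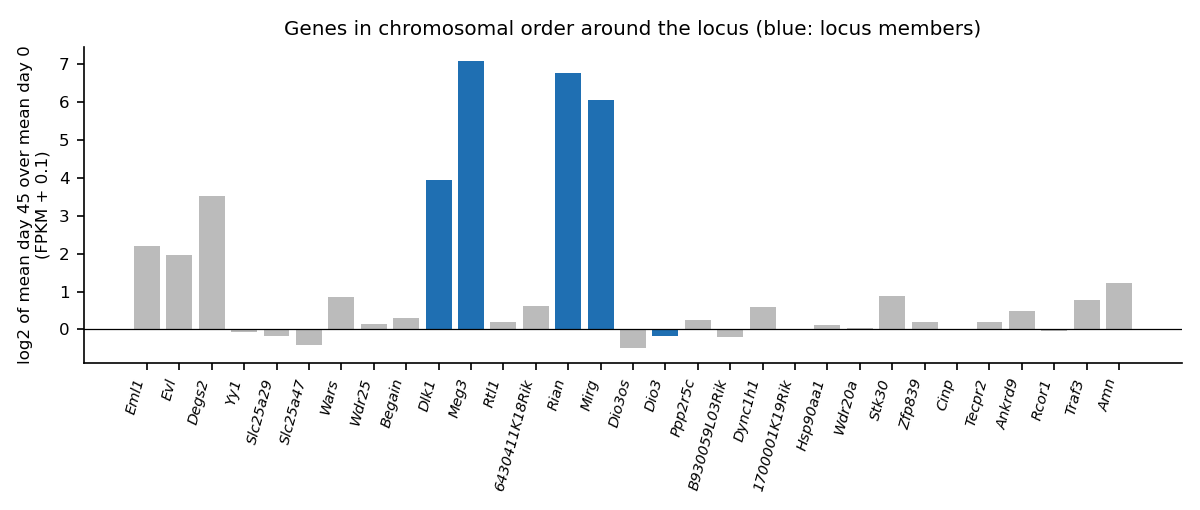
Bars give the log2 ratio of the mean day 45 to the mean day 0 level (FPKM + 0.1) for each gene in its order along the chromosome, with the 5 locus genes in blue and neighbors in gray; bars carry no error. Meg3, Rian and Mirg stand at 7.07, 6.76 and 6.04 and Dlk1 at 3.93, with Degs2 at 3.53 the highest neighbor and Dio3 at -0.17.

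The genes whose log2(FPKM + 1) followed each noncoding RNA most closely over the 14 libraries were sought among the tested genes. Mirg and Meg3 were each other's closest match (Pearson r = 0.985), and Mirg was also the closest to Rian (r = 0.982). The next for Meg3 were Sftpd, a surfactant collectin (r = 0.977), Scamp5, a secretory carrier protein (r = 0.976), Rian (r = 0.971) and Blnk, a B cell linker protein (r = 0.965). For Rian they were Meg3, the epithelial adhesion molecule Epcam (r = 0.954), Prune (r = 0.951) and the protease-activated receptor gene F2rl1 (r = 0.950). For Mirg they were Rian, Scamp5 (r = 0.965), the linker histone gene Hist1h1c (r = 0.963) and Phlda2, an imprinted gene of another chromosome (r = 0.957). The libraries cluster by time, so these values describe a shared course and have no p. Sftpd, for example, went from 0.562 FPKM at day 0 to 22.5 FPKM at day 45.

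Gene lists around the locus were counted at day 45 beside all 11354 tested genes, whose median was 0.20 on the log2 scale and of which 23.7% rose. Genes with a day 0 mean under 1 FPKM entered the tested set only through libraries in which they are higher, and they made up 29.5% of all rises, so the counts are given as a description. Of imprinted genes elsewhere that are maternally expressed, 6 of 11 tested rose and 0 fell (median 0.72), led by H19, a noncoding RNA of the Igf2 locus, from 0.976 ± 0.911 to 434.3 ± 391 FPKM, and Phlda2, from 0.0753 to 2.76 FPKM, both among the members that started under 1 FPKM. Of those paternally expressed, 5 of 13 rose and 0 fell (median 0.61), led by Igf2, a fetal growth factor, from 0.746 to 99.5 ± 135.9 FPKM, and Airn, a noncoding RNA, from 0.576 to 3.55 FPKM, which likewise started under 1 FPKM. Among genes that maintain imprints and those of Polycomb repressive complex 2, the share that rose was not above that of all genes. Of the former, 2 of 9 rose (median 0.30), Uhrf1, which guides maintenance methylation, and the methyltransferase Dnmt1, which went from 2.23 ± 0.49 to 4.52 ± 1.00 FPKM. Of the latter, 2 of 10 rose (median 0.25), Aebp2 and Ezh1. Of Notch pathway genes, 4 of 11 rose (median 0.53), led by Heyl and Sox9, and of fetal liver genes 4 of 5 tested (median 2.41), led by Cd24a and Epcam. The fetal liver list holds 14 genes, and those not tested were under the filter of 1 FPKM. Of the 14, 3 were at 0 in every day 0 library and 2 in every day 45 library. Epcam is also in the cholangiocyte list. Day 0 means were under 1 FPKM for 1 of the 2 rises among imprint maintenance genes, 2 of 4 in the Notch pathway and 2 of 4 among fetal liver genes. Of the thyroid hormone genes, the pathway of Dio3, 0 of 15 passed limma's threshold at day 45 (median -0.02), and 3 had an unadjusted p under 0.05.

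Many markers of other liver cell types also rose at day 45, though their sums did not all follow the locus genes over the groups. At day 45, where 23.7% of all tested genes rose, 15 of 16 stellate cell and fibroblast markers rose, led by the collagens Col3a1 and Col1a1, as did 9 of 10 cholangiocyte and ductal progenitor markers, led by Spp1 and Epcam, 12 of 13 macrophage markers, led by Marco and Ccr2, and 10 of 11 lymphocyte markers, led by Nkg7 and Ptprc. Of endothelial markers 6 of 13 rose, led by Cdh5 and Tie1, and of proliferation genes 11 of 11, led by Mcm2 and Mcm5. Among hepatocyte markers 1 of 14 fell, G6pc, the glucose-6-phosphatase gene, by 2.59 on the log2 scale, where 339 of 11354 tested genes fell. The summed level of hepatocyte markers was also lower than at day 0, as given above. Of the rises in the other lists, 3 of 15 stellate, 3 of 9 cholangiocyte, 2 of 12 macrophage, 5 of 10 lymphocyte, 1 of 6 endothelial and 6 of 11 proliferation genes had a day 0 mean under 1 FPKM. The summed level of stellate and fibroblast markers was 159 to 217 FPKM at day 0, 331 to 352 at day 21, 446 to 756 at day 45 and 251 to 368.7 in the knockout. That of cholangiocyte markers was 53.5 to 69.2 FPKM at day 0, 150 to 211 at day 21, 427 to 1392 at day 45 and 576 to 845 in the knockout. For macrophage markers the sums were 357 to 644 FPKM at day 0 and 1299 to 1479 at day 45, for lymphocyte markers 7.77 to 16.6 at day 0, 48.5 to 81.6 at day 21 and 35.9 to 48.4 at day 45, for endothelial markers 130 to 205 at day 0 and 263 to 294 at day 45, and for proliferation genes 10.9 to 22.7 and 39.2 to 63.6. At day 21 the sums of replicates A, B and C were 331, 352 and 339 FPKM for stellate markers and 150, 187 and 211 FPKM for cholangiocyte markers, in livers where Meg3 spread 7.00-fold. At day 45 replicate B had the highest sum of both lists and the highest Meg3, Rian, Mirg and Dlk1. The part of these cells in the results on the locus was not tested.

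The microRNAs of the locus give another readout of the maternal transcripts. All 52 listed hairpins are in the small RNA table, in 4 blocks: 6 on the Meg3 side from miR-770 to miR-665, 6 antisense to Rtl1, 3 in Rian (miR-341, miR-1188 and miR-370), and 37 from miR-379 to miR-410, of which the annotation puts the last ones inside Mirg and those from miR-379 to miR-485 between Rian and Mirg. The highest microRNA of each block at day 45 is shown with both mature arms from RefSeq (GRCm38.p6), the seed (bases 2 to 8) in capitals. The table counts hairpins, so the reads of the arms cannot be separated.
miR-665-5p: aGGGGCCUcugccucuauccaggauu
miR-665-3p: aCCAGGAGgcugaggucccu
miR-127-5p: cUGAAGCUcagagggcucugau
miR-127-3p: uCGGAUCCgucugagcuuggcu
miR-341-5p: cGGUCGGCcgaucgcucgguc
miR-341-3p: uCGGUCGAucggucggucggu
miR-376a-5p: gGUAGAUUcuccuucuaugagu
miR-376a-3p: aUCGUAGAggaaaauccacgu
RefSeq held 94 mature sequences for 50 of the 52 hairpins, with 88 different seeds. Of the 6 seeds shared by a pair of hairpins, 2 are printed for comparison, both within the miR-379 to miR-410 block, and the others are not shown.
miR-379-3p: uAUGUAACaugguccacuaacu
miR-411-3p: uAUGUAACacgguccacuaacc
miR-376b-5p: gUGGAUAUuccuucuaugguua
miR-376c-5p: gUGGAUAUuccuucuauguuua
The reads of miR-376a, miR-376b and miR-376c may be divided among them with some error, since these sequences are close and alignment allowed mismatches.

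Reads are given as RPM, here scaled to the microRNA reads other than miR-122. All blocks together held 281, 301 and 338 RPM at day 0, 1043, 1396 and 3829 RPM at day 21, 10710, 42797 and 66099 RPM at day 45, 72948 RPM at day 100 and 51942 RPM at day 200. The groups of day 0, day 21 and day 45 did not overlap, and on the log2 scale the day 45 mean was higher by 7.51 for the Meg3 side, 6.24 for the Rtl1 antisense block, 6.49 for the Rian block and 6.87 for the miR-379 to miR-410 block (exact permutation p = 0.1 each, the smallest that 3 mice against 3 can give). Scaled to all microRNA reads, miR-122 included, these were 8.85, 7.80, 7.24 and 8.44. Single libraries also moved these sizes by over 1.5 times. Without day 45 replicate A they were 8.26, 7.12, 7.89 and 7.58, and without day 45 replicate C the Rtl1 antisense block was at 5.52 and the Rian block at 5.81. For the Meg3 side the value was 8.28 without day 0 replicate B and 6.63 without day 0 replicate C, and for the Rian block 5.49 without day 0 replicate A, 5.76 without day 45 replicate B and 7.34 without day 0 replicate C. Of the 52 hairpins, 33 had all 3 day 45 mice above all 3 day 0 mice, against 10.1% of 406 microRNAs outside the locus. The highest were miR-127, at 83.1 RPM at day 0 and 9177 ± 8988 RPM at day 45, with miR-136 next in its block (3258 ± 1959 RPM), and miR-376a, at 57.3 and 6069 ± 3587 RPM, with miR-154 next (3653 ± 3571 RPM). On the Meg3 side miR-665 reached 2001 ± 1469 RPM and miR-337 1461 ± 842 RPM at day 45 (SD, n = 3), while in the Rian block miR-341 reached 639 ± 511 RPM and miR-370 only 6.16 RPM.

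The order of the mice in the blocks matched that of the transcripts in part. At day 21 the Meg3-side block was at 98.1, 184 and 365 RPM in replicates A, B and C and the miR-379 to miR-410 block at 429, 769 and 2469 RPM, lowest in A and highest in C like Meg3 and Mirg. The Rian block, at 2.29, 21.0 and 42.7 RPM, had that order too, but the Rtl1 antisense block, at 513, 422 and 953 RPM, was lowest in B. At day 45 replicate A was again lowest, with 6880 RPM for the miR-379 to miR-410 block, but replicate C, at 34981 RPM, exceeded B, at 25646 RPM, while Mirg was higher in B (12.4 FPKM) than in C (8.45 FPKM). The Meg3 side likewise was higher in C (5432 RPM) than in B (4809 RPM), unlike Meg3. The Rian block was at 50.4, 979 and 914 RPM in A, B and C, in the order of Rian. From day 100 to day 200 the miR-379 to miR-410 block went from 47080 to 32786 RPM and Mirg from 11.5 to 5.89 FPKM, with 1 mouse at each time. The labels match by day and letter, and no source says that the 2 kinds of library came from the same mouse.

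**Figure D5:**
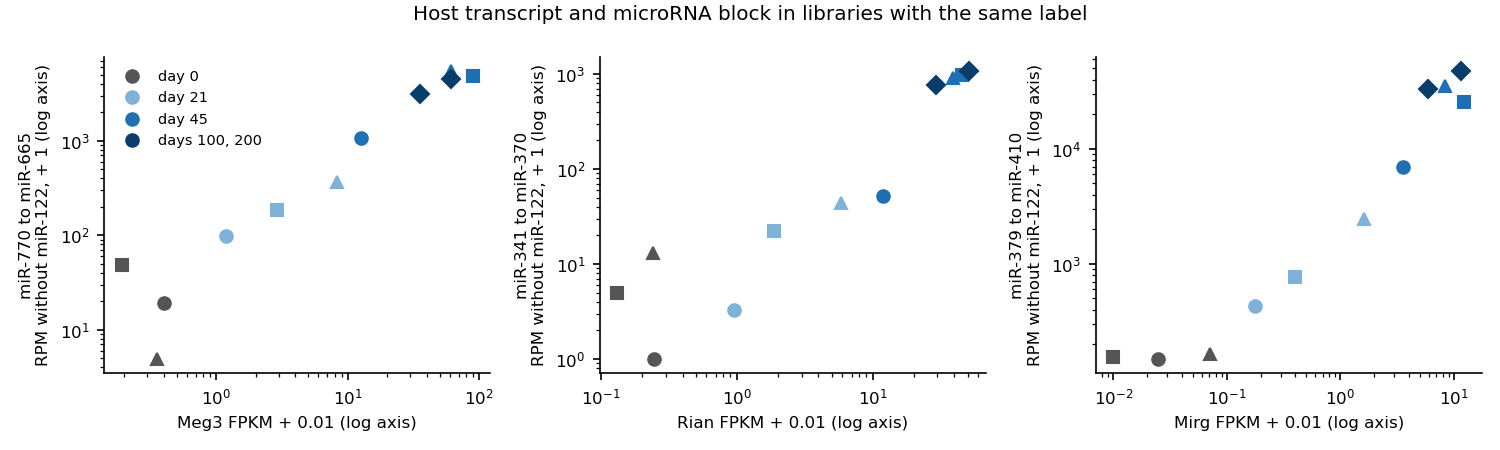
Each point is a pair of libraries with the same day and letter; the horizontal axis gives the FPKM of the host transcript plus 0.01 and the vertical axis the RPM of the microRNA block plus 1, both on log axes, with circles, squares and triangles for replicates A, B and C and diamonds for days 100 and 200. Day 0, day 21 and the later points follow each other along both axes for Meg3 and Mirg, and the Rian block at day 21 overlaps day 0 (2.29 to 42.7 against 0 to 12 RPM).

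In livers labeled by developmental stage, which have no RNA-seq here, the blocks together held 45692 and 78563 RPM at E14, 233710 and 272207 RPM at E18, 200105 and 211195 RPM at P1, 122740 and 167491 RPM at P8, 49858 RPM at P12, 16558 RPM at P17, 8193 RPM at P21, 5546 RPM at P28 and 359 and 457 RPM at P270. The levels of days 100 and 200 after Cre, 72948 and 51942 RPM, lay between those of P8 and P12 and also within the range of the 2 livers of E14. By the study's description, LKO is a liver-specific miR-122 knockout made with Cre under the Albumin promoter, and what sets LKO_flox and LKO_floxCre apart is not stated in the labels. Livers labeled LKO_flox held 14874 and 69767 RPM and those labeled LKO_floxCre 60201 and 92267 RPM, with 2 mice each. The lowest value above 0 of any microRNA was 45.6 RPM in P270 replicate A and 3.79 RPM in replicate B, so lower levels of single microRNAs were not detectable there.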

How the data were processed

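Livers of 14 mice were profiled by RNA-seq and 42 livers by small RNA sequencing, each library taken as 1 mouse. The authors mapped the poly-A reads to mm9 with TopHat and deposited FPKM made with Cufflinks 2.2.1 (quartile scaling, after mitochondrial, ribosomal and snoRNA sequences were taken out). For small RNA the authors aligned reads to miRBase hairpins with Bowtie 0.12.7, allowing mismatches, and deposited RPM with 1 added, which was taken off here before values were divided by the reads other than miR-122. The RPM tables give no read totals, and FPKM hold no fragment counts, so no count model was fitted.

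The 5 members and the gene lists were chosen with earlier results of these data known. Rows of 1 symbol were summed. limma 3.58.1 in R 4.3.3 was fitted once to log2(FPKM + 1), after genes under a mean of 1 FPKM were dropped, with a term for each of 5 groups (uninjected, knockout, and days 21, 45 and, joined, 100 and 200; eBayes with trend). Benjamini-Hochberg adjustment ran over all tested genes of a comparison. The fit was tested on simulated data. Exact two-sided permutation tests used log2(FPKM + 0.1), or block sums of RPM + 1. Labels give replicate letters only, so p-values measure the spread between these samples, which may be partly technical. The FPKM of 1 fragment was the most frequent low value, scaled by transcript length less 180 bases, over genes with 1 annotated transcript of 800 to 3000 bases. Annotation was GENCODE vM1 on NCBIM37, the mm9 build, and positions are those of the table.

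Genes named beside the members are, for Meg3, Rian and Mirg, the 5 most alike by Pearson r, the genes between Dlk1 and Dio3 and those within 1 Mb that were called against day 0, up to 2 rises and 2 falls of each list at day 45, and the 2 highest microRNAs of each block. Yy1, Slc25a29, Slc25a47 and Wdr25, the microRNAs printed for their shared seeds, and 6430411K18Rik as an overlapping row were named after their values were seen, or for position alone. Alternatives covered pseudocount, filter, scaling, duplicate rows, the samples in the fit, the trend, a replicate block and leaving out each mouse. Scripts used scipy 1.17.1, numpy 2.4.6 and pandas 2.3.3 under Python 3.11.15, and figures matplotlib 3.10.9.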

Additional observations from a re-analysis of the deposited data

Results flagged for a closer look

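The changes between day 45 and day 21 of Rian, 3.10 ± 0.56 on the log2 scale (SE, limma adjusted p = 0.0455), and of Mirg, 2.37 ± 0.38 (limma adjusted p = 0.0291), are singled out because the effects at the 2 time points, each against day 0, differed by a direct test. Both calls are lost with centered libraries (2.92 and 2.21, limma adjusted p = 0.0714 and 0.0556) and, at unchanged folds, with the replicate block (0.0597 each), without a filter (0.0745 and 0.0615) and with only the groups compared (0.0807 and 0.0798). With a pseudocount of 0.1 both were called at 3.60 and 3.59 (limma adjusted p = 0.0362 and 0.0267), as was Meg3 (0.0464), so the difference is near the threshold and not established. All 3 day 45 mice lay above all 3 day 21 mice for both genes, and the share of all genes with this order was not counted. No labeled group of RNA-seq libraries has 4 or more mice, so single mice were not tested for standing apart.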

How the results depend on the processing

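Against day 0, Meg3, Rian and Mirg kept their direction and their call at day 45, at days 100 and 200 and in the knockout under the 13 to 17 alternatives run for each, with limma adjusted p of at most 0.0138. At day 45 they ranged over these from 4.49 to 6.71, 4.25 to 6.57 and 2.68 to 5.90. At day 21, 0 of the members were called, where 6.20% of all tested genes were called higher. With a pseudocount of 0.1 alone 3 were called, and the share of all genes was not counted. With both filter and pseudocount of 0.1, an alternative added after the data were seen, 3 were called, against 8.47% of all genes. For day 45 against day 21, 2 members were called, where 0.273% of all tested genes were called higher. The number was 3 with a pseudocount of 0.1 or with both filter and pseudocount of 0.1, but 1 with a filter of 0.1 FPKM. It was 0 without a filter, with centered libraries, with the replicate block or with only the groups compared. Leaving out 1 mouse at a time gave 0 to 3. With centered libraries 0.0177% of all genes were called higher, and in the other alternatives this share was not counted. The 6 ratios that passed became 3 with a pseudocount of 0.01. Scaled to all microRNA reads, the rise at day 45 was 8.85 for the Meg3 side, 7.80 for the Rtl1 antisense block, 7.24 for the Rian block, 8.44 for the miR-379 to miR-410 block and 8.24 for all blocks, against 7.51, 6.24, 6.49, 6.87 and 6.67 without miR-122.

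The letters A, B and C gave no sign of pairing the mice. Deviations from the group means correlated at -0.447 to 0.501 over 18 pairs of libraries with the same letter, and 8 of 18 were over 0.1. Over 36 pairs with different letters they correlated at -0.411 to 0.508, and 15 of 36 were over 0.1. In the fit with the replicate block Rian and Mirg had limma adjusted p = 0.0597 between day 45 and day 21, and the block changed no other call of Meg3, Rian or Mirg. It was not run for days 100 and 200, which have no letters, or for Dlk1 and Dio3, which the filter drops.

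Differences that were not called changed sign in 11 cases. For the knockout against day 45, leaving out 1 mouse at a time gave -0.39 to 0.97 for Meg3, -0.85 to 0.22 for Rian and -0.36 to 0.42 for Mirg. Meg3 and Mirg turned without day 45 replicate A, Rian without day 45 replicate B (0.07) or knockout replicate A, and Mirg without knockout replicate C (-0.03), while Rian was at 0.52 with knockout replicate C alone and 0.55 when the filter and pseudocount were also 0.1. In that last setting, added after the data were seen, Dlk1 was at -0.023 and Dio3 at -0.24 against day 0, and Dio3 at -0.13 against day 45. The call of Dlk1 at day 45 was lost with no filter. Dio3 after Cre was at -0.12 to 0.45, the lowest without day 0 replicate B. The causes were not tested. The planned edgeR test on recovered microRNA reads was not run, because whole reads could not be recovered in all libraries.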
